A study of Homo sapiens with 4 samples.

Results

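The mRNAs of 4 poly(A)-binding proteins, PABPC1, PABPC4, PABPC1L and PABPN1, were followed in an RNA immunoprecipitation of the replication factor ORC1. They were chosen by gene symbol, as the rows of the count table whose Ensembl identifiers carry these symbols in GENCODE release 44, and all 4 were found among the 63677 genes of the table and among the 14645 genes with enough counts to be tested. RNA had been sequenced from nuclei of HCT116, a human colorectal carcinoma line, 48 h after transfection of a plasmid for ORC1 with a 3xFLAG tag, so every library came from cells that carry this plasmid in addition to their own ORC1. Nuclear lysates were precipitated without crosslinking by the FLAG antibody M2, which gave 2 libraries of precipitated RNA (IP), and RNA of the lysates before precipitation gave 2 reference libraries (Input). IP and Input of the same number belong to the same precipitation. Precipitations with a control antibody and cells without the plasmid were not analysed here, so RNA held by beads or antibody cannot be told apart from RNA bound by ORC1-FLAG.

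Poly(A)-binding proteins coat the poly(A) tail at the end of mRNAs. PABPC1 is the main cytoplasmic form, which contacts the translation initiation factor eIF4G and so brings the tail close to the cap, and which also takes part in removal of the tail by deadenylases. PABPC4 is a second cytoplasmic form, known as inducible PABP, PABPC1L is a form best known from oocytes and early embryos, and PABPN1 is a nuclear protein of a different structure that stimulates poly(A) polymerase. All cells need such proteins, and the PABPC1 mRNA is among the abundant mRNAs that encode parts of the translation machinery.

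Repeats of the triplet GAA were searched in these mRNAs, because this repeat is a sequence feature that the study examined. The search used the canonical GENCODE transcript of each gene in the sense direction and counted both GAAGAA and the longer GAAGAAGAA, every copy of which holds the shorter motif. None of the 4 transcripts held GAAGAAGAA, and PABPC1, PABPC4 and PABPC1L each held 2 copies of GAAGAA, with 1 copy in PABPN1. All copies lay in coding sequence except 1 of the 2 in PABPC1, which lay in the 3′ UTR. The copies of PABPC4, PABPC1L and PABPN1 are shown here with 9 bases on either side, from GRCh38 and 5′ to 3′ on the strand of the gene, with GAAGAA in capitals.
PABPC4, chr1:39565348-39565371, minus strand: tggaggatgGAAGAAgcaaagggt
PABPC4, chr1:39565307-39565330, minus strand: tcatctcctGAAGAAgcaaccaaa
PABPC1L, chr20:44918978-44919001, plus strand: catctacgtGAAGAAcctcccggt
PABPC1L, chr20:44924169-44924192, plus strand: cttgtatgtGAAGAAtctggacga
PABPN1, chr14:23322211-23322234, plus strand: gagatggagGAAGAAgctgagaag
The reading frame split the motif into GAA codons in the PABPN1 copy and in the PABPC4 copy at 39565307, and not in the other three. Among all tested genes with a transcript, 79.6% held GAAGAA and 13.8% held GAAGAAGAA. The shares were 96.6% and 38.3% among the genes enriched in the IP, and 65.1% and 4.59% among the depleted genes. Calls followed coding length: 1.44% of protein-coding genes were enriched in the decile of shortest coding length and 46.6% in that of the longest. The part of length in these shares was not tested. A match is a description of the transcript and does not mark a binding site.

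The libraries held 9213877 to 27483148 counts. Genes of epithelial cells were present in all 4 libraries, from EPCAM at 98.4 to 193 and CDH1 at 46.8 to 142 up to KRT8 at 974 to 2055 scaled CPM (a gene's count relative to the library total, after TMM scaling, which sets the bulk of genes equal between libraries), while the leukocyte gene PTPRC held 1 count in all libraries together. The collagen gene COL1A1, typical of fibroblasts, was present in every library at 7.90 to 26.7 scaled CPM. The replicates stood apart in RNA that is kept in the nucleus: MALAT1 was at 758 scaled CPM in Input replicate 1 and 4084 in Input replicate 2, and NEAT1 at 81.6 and 1326. ORC1 was at 333 and 5063 scaled CPM in the same Inputs, a 15.2-fold difference. The plasmid carries a codon-optimized ORC1 sequence, so how many of its reads were counted with the cell's own ORC1 is not known. The study's methods describe the FLAG precipitations as duplicate experiments. The labels do not say whether the replicates came from separate cultures, so that p-values measure the spread between these samples only. Reads had no molecular identifiers, and counting intervals cover counting error alone.

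PABPC1 was by far the most abundant of the group. It held 28968 and 11497 counts in Input replicates 1 and 2 and 65622 and 29151 counts in the IP of the same numbers. On the scaled CPM scale these were levels of 1659 and 984 in Input and 3151 and 1658 in IP. The IP of replicate 2 thus lay at the level of the Input of replicate 1, and the groups overlapped by the width of that small difference, although IP exceeded Input within each replicate. By mean Input level it held rank 26 of all tested genes, and by mean IP level rank 48.

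PABPC4 held 4741 and 2656 counts in Input and 7299 and 5436 in IP. Its levels were 272 and 227 scaled CPM in Input and 351 and 309 in IP, so that both IP libraries lay above both Inputs. It ranked 526 by Input and 676 by IP level.

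PABPC1L, the oocyte form, was detected at low level. It held 70 and 178 counts in Input and 186 and 465 in IP, or 4.01 and 15.2 scaled CPM in Input and 8.93 and 26.5 in IP. Both libraries of replicate 2 lay above both libraries of replicate 1, so that the replicates were separated and the groups overlapped. Replicate 2 exceeded replicate 1 by 3.80-fold in Input and 2.96-fold in IP, and only 1.29% and 0.717% of tested genes had a larger ratio in these comparisons. MALAT1, NEAT1 and ORC1 moved the same way in Input, and their part in the PABPC1L level was not tested.

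PABPN1, the nuclear form, held 420 and 156 counts in Input and 476 and 292 in IP. Its levels were 24.1 and 13.4 scaled CPM in Input and 22.9 and 16.6 in IP. Both IP values fell between the Inputs, and the groups overlapped fully. PABPN1 and PABPC1 were both higher in replicate 1, PABPC1 by 1.69-fold in Input and 1.90-fold in IP, which is opposite to PABPC1L, and 94.4% and 98.6% of tested genes had a larger ratio of replicate 2 to replicate 1 than PABPC1. In a bulk nuclear preparation, a different share of cells and a different amount of RNA per cell or per nucleus cannot be told apart.

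**Figure D1:**
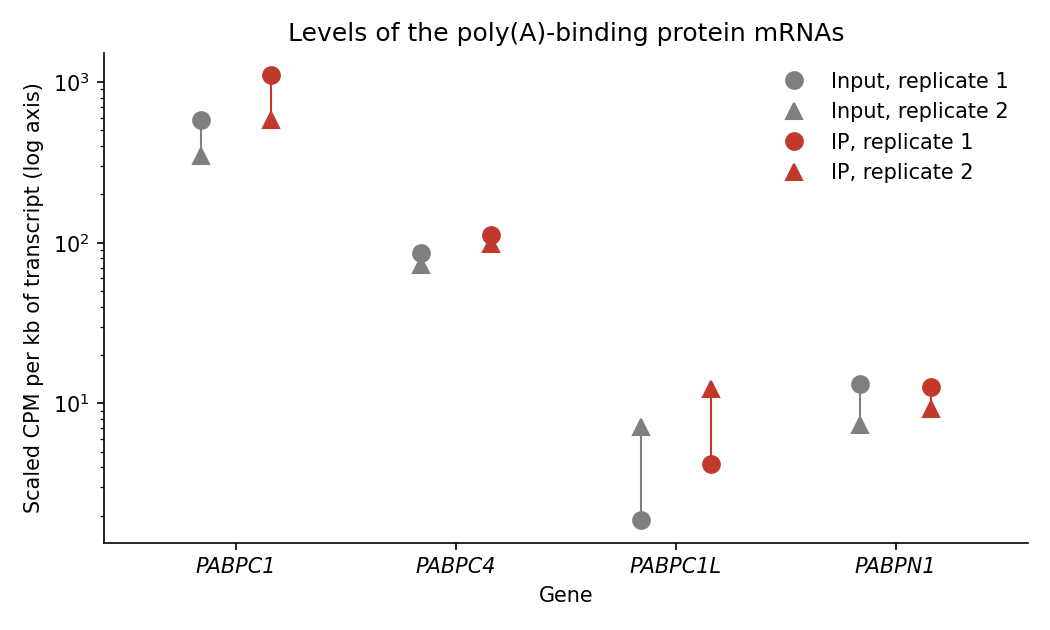
Scaled CPM per kb of the canonical transcript (log axis) for each gene, with Input in grey and IP in red, circles for replicate 1 and triangles for replicate 2, and a line joining the 2 replicates of a group. PABPC1 lies above PABPC4 and both lie far above PABPN1 and PABPC1L, whose IP values overlap.

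Levels were compared between genes per kb of canonical transcript, as in the plot of levels by library. In Input the order was PABPC1 at 580 and 344 scaled CPM per kb, PABPC4 at 86.4 and 72.3, PABPN1 at 13.3 and 7.37, and PABPC1L at 1.87 and 7.12. PABPC1 exceeded PABPC4 by 6.71-fold and 4.75-fold in Input replicates 1 and 2, and by 9.87-fold and 5.89-fold in IP. PABPC4 exceeded PABPN1 by 6.51-fold and 9.81-fold in Input. The neighbours PABPN1 and PABPC1L overlapped in IP, and in Input they differed by 7.09-fold in replicate 1 and by 1.04-fold in replicate 2, so their order does not exceed the spread between replicates. Only 20.1% of the canonical PABPN1 transcript is free of exons shared with the readthrough gene BCL2L2-PABPN1, so if reads in the shared exons were not counted, the PABPN1 level per kb is too low and its place in the order is uncertain. The same order resulted per kb of the union of exons.

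IP was compared with Input to ask which RNAs of the nucleus came down with ORC1-FLAG. None of the 4 mRNAs was called enriched or depleted, where a call by the quasi-likelihood test of edgeR needs both an adjusted p (Benjamini-Hochberg, over all tested genes) below 0.05 and a change of more than 1 in either direction on the log2 scale. In this comparison 10.5% of tested genes were called enriched and 8.30% depleted. The unadjusted edgeR p-values were 0.0793 for PABPC1, 0.149 for PABPC4, 0.232 for PABPC1L and 0.834 for PABPN1. DESeq2 and limma voom called 0 of 4 as well, against 2832 of 31990 genes by DESeq2 and 2667 of 14645 by limma voom. The unadjusted p of PABPC1 by DESeq2 was 0.0372.

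PABPC1 was 1.90-fold higher in IP than in Input in replicate 1 and 1.69-fold in replicate 2, log2 ratios of 0.93 and 0.75 on scaled CPM with a pseudocount of 0.5. The edgeR log2 fold change was 0.86 ± 0.42 (SE, 2 libraries per group; 95% confidence interval -0.13 to 1.86; adjusted p = 0.177). This put PABPC1 at percentile 82.9 of the fold changes of all tested genes. The value depended on single libraries. It was 1.30 without IP replicate 2 and 1.33 when Input replicate 1 was left out. It was 0.37 when IP replicate 1 was left out and 0.38 when Input replicate 2 was. Each such fit leaves a single library in its group and loses the pairing of IP and Input.

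PABPC1L had log2 ratios of 1.06 and 0.78, or 2.23-fold and 1.74-fold. Its edgeR log2 fold change was 0.90 ± 0.68 (SE; 95% confidence interval -0.72 to 2.52; adjusted p = 0.377), at percentile 83.6. The wide interval went with the separation of the replicates. The log2 fold change was -0.03 without IP replicate 2 and 0.26 when Input replicate 1 was left out. It was 1.53 when IP replicate 1 was left out, and 2.00 when Input replicate 2 was. Each such fit leaves a single library in its group and loses the pairing, so its value also holds the difference between the replicates.

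PABPC4 had log2 ratios of 0.37 and 0.44, or 1.29-fold and 1.36-fold, which differed little between replicates. Its edgeR log2 fold change was 0.40 ± 0.25 (SE; 95% confidence interval -0.18 to 0.99; adjusted p = 0.275), at percentile 66.9, and it became -0.20 where counts were scaled by library size only. That scaling moved the median of all tested genes by -0.60 on the log2 scale, and under it PABPC1 and PABPC1L stayed above 0, at 0.24 and 0.31.

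PABPN1 had log2 ratios of -0.07 and 0.30, 1 below and 1 above 0. Its edgeR log2 fold change was 0.07 ± 0.33 (SE; 95% confidence interval -0.72 to 0.86; adjusted p = 0.897), at percentile 52.9. The value changed sign with the scaling, to -0.53 with library size only and -0.09 with upper-quartile scaling, and ranged from -0.44 without Input replicate 2 to 0.61 without Input replicate 1.

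**Figure D2:**
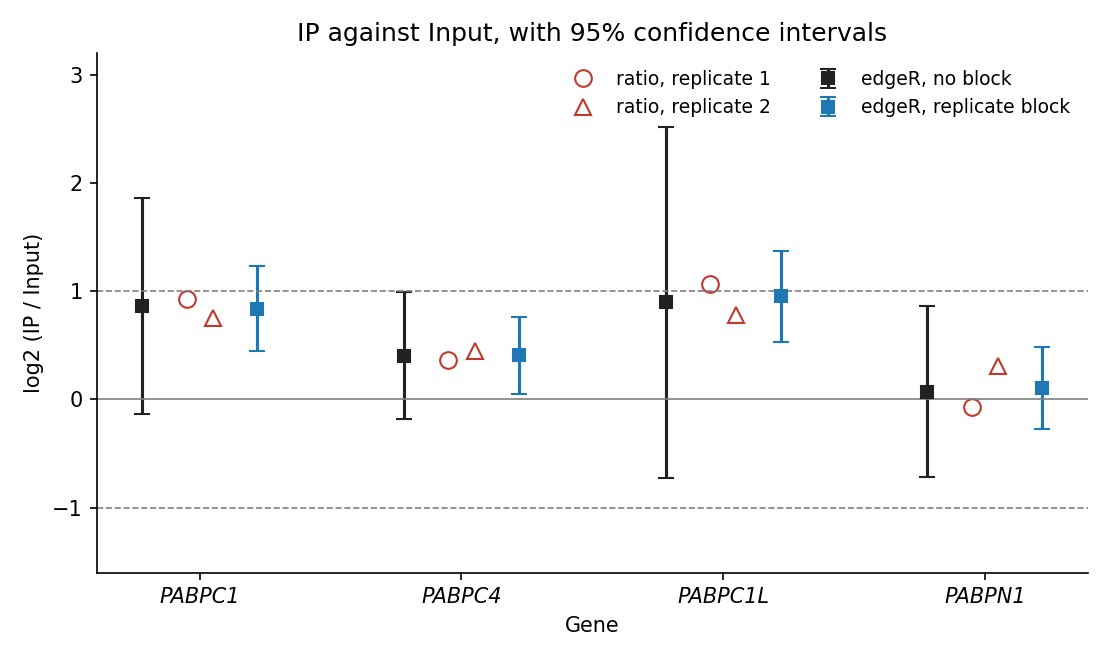
Log2 of IP over Input for each gene, as open circles and triangles for the ratios of replicates 1 and 2, black squares for the edgeR fold change without a block and blue squares for the fit with a replicate block, with bars for the 95% confidence interval and dashed lines at -1 and 1. The estimates of the 2 fits are close, while the intervals of the blocked fit are narrower and lie above 0 for PABPC1, PABPC4 and PABPC1L. Both fits use TMM scaling, and the intervals leave out the uncertainty of scaling.

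Since numbers pair IP with its own Input, the fit with the replicate number as a block bears on the same ratios. Its SE and intervals rest on 2 pairs of libraries and on spread that edgeR shares across genes. With the block, PABPC1 was at 0.84 ± 0.19 on the log2 scale (SE; 95% confidence interval 0.44 to 1.24; edgeR adjusted p = 0.00126). PABPC1L was at 0.95 ± 0.20 (0.53 to 1.37; edgeR adjusted p = 0.000705), PABPC4 at 0.41 ± 0.17 (0.05 to 0.76; edgeR adjusted p = 0.0505) and PABPN1 at 0.11 ± 0.18 (-0.27 to 0.49; edgeR adjusted p = 0.635). None passed the fold change minimum of 1, against 13.4% of tested genes enriched and 13.4% depleted in the same fit. By the adjusted p alone, 2 of 4 were higher in IP, against 28.7% of all tested genes. The blocked fit, run with TMM scaling only, thus gave PABPC1 and PABPC1L a higher level in IP than in Input. Both values were below the fold that the call requires. Without the block, scaling by library size only put PABPC1 at 0.24, PABPC1L at 0.31 and PABPC4 at -0.20. The blocked intervals leave out this uncertainty of scaling. The plot of fold changes shows both fits side by side.

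Differences between these mRNAs in IP over Input do not depend on scaling, because the scaling of a library cancels in the ratio of 2 of its genes. The ratio of PABPC1 to PABPC4 counts was 8.99 in IP and 6.11 in Input of replicate 1, and 5.36 and 4.33 in replicate 2. The log2 ratio of PABPC1 therefore exceeded that of PABPC4 by 0.56 (95% counting interval 0.50 to 0.61) in replicate 1 and 0.31 (0.24 to 0.38) in replicate 2. PABPC1 and PABPC1L differed by -0.23 (-0.63 to 0.17) and -0.04 (-0.29 to 0.21), so a difference was not detectable at this depth. PABPC1 exceeded the nuclear PABPN1 by 1.00 (0.81 to 1.19) and 0.44 (0.16 to 0.72), and PABPC1L exceeded it by 1.23 (0.79 to 1.67) and 0.48 (0.11 to 0.86). PABPC4 lay below PABPC1L by values of -0.79 and -0.35, and it differed from PABPN1 by 0.44 (0.25 to 0.64) and 0.13 (-0.16 to 0.42). In all 6 pairs both replicates had the same sign. An exact sign-flip permutation test of 2 replicates cannot go below a two-sided p of 0.5, so no pair was tested beyond its counting interval.

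Each mRNA was then placed among genes of like coding length, since the median log2 fold change of protein-coding genes increased from -0.81 in the decile of shortest coding length to 1.07 in that of the longest. PABPC1 with a coding length of 1908 bases, PABPC4 with 1980 and PABPC1L with 1857 belong to decile 7 of protein-coding genes by coding length, from 1695 to 2064 bases, where the median log2 fold change was 0.28 and the quartiles were -0.14 and 0.75. PABPC1 and PABPC1L lay above that upper quartile, and PABPC4 between median and upper quartile. PABPN1, with 918 coding bases, belongs to decile 3, of 780 to 999 bases, where the median was -0.36 and the quartiles were -0.80 and 0.14. Its log2 fold change of 0.07 thus lay in the upper part of its length class, although it was the lowest of the group. The confidence interval of PABPN1 (-0.72 to 0.86) held its class median too. Within the class of PABPC1, 10.4% of genes were enriched and 1.20% depleted.

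**Figure D3:**
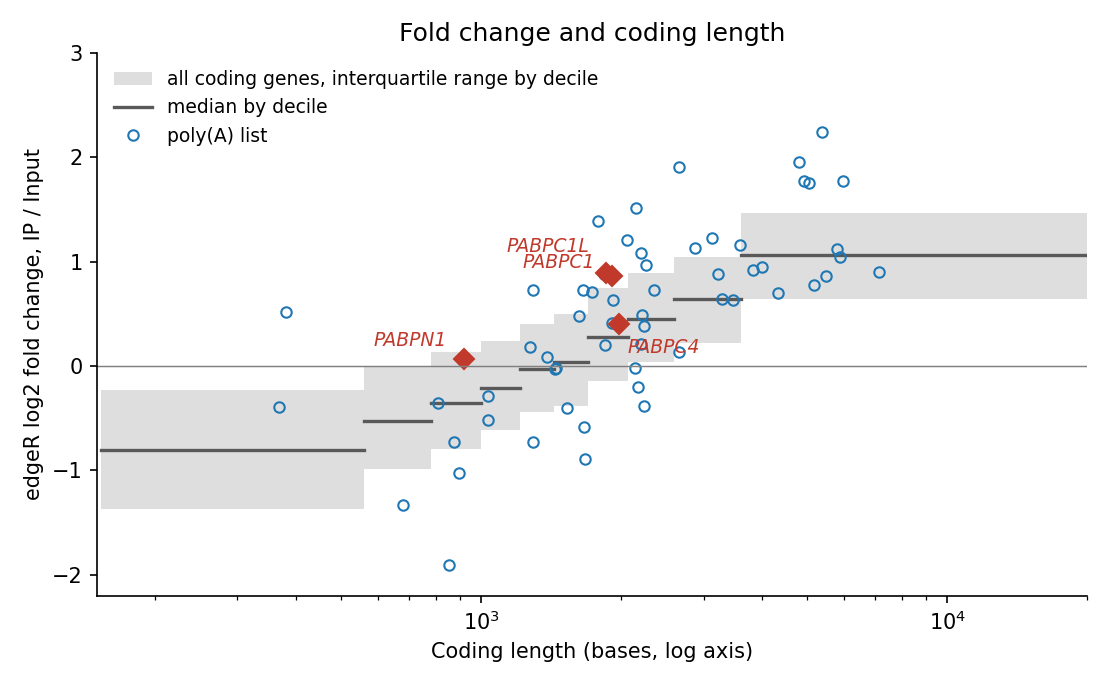
The edgeR log2 fold change of IP over Input against coding length (log axis, in bases, with the longest genes running past the right edge), with grey boxes for the interquartile range and dark lines for the median of each decile of protein-coding genes, open blue circles for genes of poly(A) metabolism and red diamonds for the 4 mRNAs. The estimates of PABPC1 and PABPC1L lie above the box of their length class, and those of PABPC4 and PABPN1 inside theirs, with no confidence intervals drawn.

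The genes lie on 4 chromosomes in GRCh38, and coordinates are those of GENCODE and not of the hg19 build on which the reads were counted. PABPC1 (ENSG00000070756) spans positions 100685816 to 100722809 of chromosome 8 on the minus strand, with 15 exons and 2861 bases in its canonical transcript. PABPC4 (ENSG00000090621) spans 39560709 to 39576790 of chromosome 1 on the minus strand, with 16 exons and 3142 bases. PABPC1L (ENSG00000101104) spans 44910060 to 44959035 of chromosome 20 on the plus strand, with 15 exons and 2141 bases. PABPN1 (ENSG00000100836) spans 23321457 to 23326163 of chromosome 14 on the plus strand, with 7 exons and 1811 bases.

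Exons shared with other genes touched mostly PABPN1. The readthrough gene BCL2L2-PABPN1, which joins the upstream apoptosis inhibitor gene BCL2L2 to PABPN1, covers 1447 of the 3686 exonic bases of PABPN1 on the same strand, and 79.9% of its canonical transcript. It held 3 and 2 counts in IP and 5 and 2 in Input. How reads in exons of both genes were counted is not given in the sources used here, so the PABPN1 level is uncertain, and the part of this overlap in its fold change was not tested. The sum of both genes had a log2 fold change of 0.06, but with so few counts in the readthrough gene the sum could not recover reads that were left out. PABPC4 shares 1118 exonic bases with its antisense gene PABPC4-AS1, which held 6 to 19 counts in a library, and the snoRNA SNORA55, within its locus, held 1 to 11. PABPC1 shares 57 bases with the microRNA gene MIR7705, and the exons of PABPC1L overlapped no other annotated gene.

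Processed copies are the other source of uncertain counts, since PABPC1 has spread through the genome as retrotransposed pseudogenes. By symbol, GENCODE names 13 PABPC1 pseudogenes and 2 of PABPN1, and none after PABPC4 or PABPC1L, which leaves out pseudogenes with other names. All 13 had a row in the count table, and 4 held a count: PABPC1P1 with 23 counts over the 4 libraries, PABPC1P3 and PABPC1P4 with 16 each and PABPC1P7 with 3. Their sum was 19 and 8 counts in IP and 12 and 19 in Input, from 0.0274% to 0.165% of the PABPC1 count of the same library. Adding them left the log2 fold change of PABPC1 at 0.86. The pseudogenes of PABPN1 held 0 to 2 counts per library.

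Reads that match several places may have been left out of the counts, which the pseudogene rows cannot show. Every window of the canonical transcripts was therefore searched for an exact copy elsewhere on the 24 chromosomes. For windows of 50 bases, 17.7% of PABPC1 windows had such a copy, with 7.83% for PABPN1, 3.27% for PABPC4 and 0% for PABPC1L. For windows of 100 bases the shares were 2.32%, 2.80% and 0.559%, again with 0% for PABPC1L, and no window of 150 bases in any of the transcripts had a copy. The copies of 50 bases of PABPC1 fell in 12 annotated genes, of which 6 were pseudogenes. A stretch within overlapping genes was counted under each of them. The most matching bases, 667, lay in PABPC3, an intronless testis form. The lncRNA gene ENSG00000289006 had the same number at this and every other window length, so both values can stand for the same copies. Next were 494 bases outside annotated genes and 358 bases in PABPC1P4. Copies of 50 bases of PABPC4 fell in 4 annotated genes, of which 2 were pseudogenes. These are ENSG00000237176 and ENSG00000258895, which are not named after PABPC4 and held 1 count each over the 4 libraries. ENSG00000250568, a pseudogene with copies of PABPC1, is not named after it either and held 11 counts. The read length and what was done with multi-mapped reads are not given in the sources used here, so the loss of reads was not measured.

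**Figure D4:**
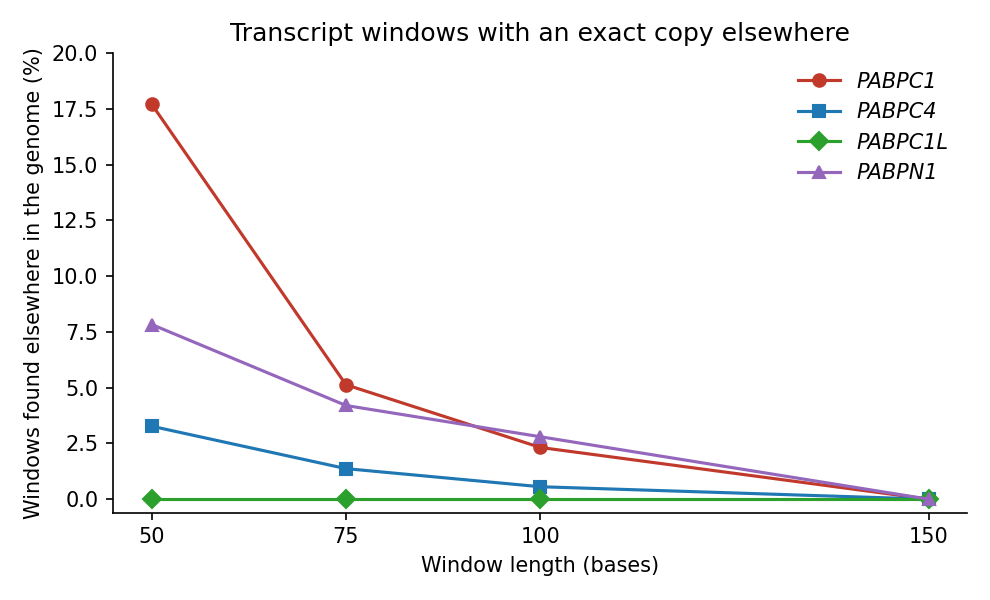
Share of the windows of each canonical transcript (in percent) that have an exact copy elsewhere in GRCh38, against the window length of 50, 75, 100 and 150 bases. The share falls from 17.7% at 50 bases to 0% at 150 bases for PABPC1, and is 0% at every length for PABPC1L.

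Other genes of the family were near or at 0. PABPC3 held 24 and 11 counts in IP and 9 and 8 in Input, a log2 difference of 0.58 ± 0.68 (SE; edgeR adjusted p = 0.566), and since it shares long stretches with PABPC1 these reads are uncertain. PABPN1L, a form related to PABPN1, held 3 to 7 counts per library and was not tested. PABPC5, PABPC4L, PABPC1L2A and PABPC1L2B were listed at 0 in every library.

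The other genes of poly(A) metabolism were described from a list of 59 genes in 4 roles, of which 58 were tested. GSPT2 was not tested, with 1 count in all libraries together. Of the 58 genes, 14 were enriched in IP (24.1%, against 10.5% of all tested genes) and 3 were depleted (5.17%, against 8.30%). The split was 10 and 4 with upper-quartile scaling and 6 and 9 with library size only. The median log2 fold change was 0.64, against 0.01 over all tested genes and 0.08 over protein-coding genes. The genes of the list were longer, with a median coding length of 2161.5 bases against 1431 over protein-coding genes, and the part of length in these shares was not tested. The 14 enriched genes had coding lengths from 1782 bases in FIP1L1 to 5967 in ZFC3H1, and the 3 depleted genes had 681 to 897.

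Among partners of PABP, 4 of 18 were enriched (22.2%, against 10.5% of all tested genes) and none depleted (against 8.30%). The median was 0.58. The 4 enriched genes have 4797 to 5886 coding bases and belong to length decile 10, where 46.6% of genes were enriched. EIF4G1 and EIF4G3 encode the eIF4G scaffolds that PABPC1 binds in translation initiation, and they had log2 fold changes of 1.95 ± 0.29 (SE; edgeR adjusted p = 0.0108) and 1.78 ± 0.25 (edgeR adjusted p = 0.0106). EIF4G1 was at 841 and 818 scaled CPM in Input and 3378 and 3051 in IP, so its groups were far apart. TNRC6C and TNRC6A, scaffolds of microRNA silencing that bind PABP, were enriched by 1.12 and 1.05. The lowest values were those of TOB1, an adaptor between PABP and deadenylases, at -0.52, and of the PABP inhibitor PAIP2B, at -0.39, neither of which passed the test.

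Of the 19 genes of cleavage and polyadenylation, 5 were enriched (26.3%, against 10.5% of all tested genes) and 1 was depleted (5.26%, against 8.30%). The median was 0.73, and the 5 enriched genes belong to length deciles 7 to 10, where 10.4% to 46.6% of genes were enriched. RBBP6 had the highest value, 2.24 ± 0.27 (SE; edgeR adjusted p = 0.0105), with levels of 93.4 and 74.8 scaled CPM in Input and 365 and 431 in IP. PCF11 at 1.76, CSTF3 at 1.51, FIP1L1 at 1.39 and the endonuclease CPSF3 at 1.21 followed. NUDT21, the small subunit of cleavage factor Im, was depleted at -1.33 ± 0.39 (SE; edgeR adjusted p = 0.0492), from 258 and 166 scaled CPM in Input to 112 and 56.5 in IP. NUDT21 has 681 coding bases and belongs to length decile 2, where 18.6% of genes were depleted. The poly(A) polymerase gene PAPOLA, whose product PABPN1 stimulates, was at -0.38 and did not pass the test.

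The 16 deadenylase genes had a median of 0.06, with 1 enriched (6.25%, against 10.5% of all tested genes) and 2 depleted (12.5%, against 8.30%). The enriched gene has 3594 coding bases, in length decile 9, where 24.1% of genes were enriched. The 2 depleted genes have 855 and 897 coding bases, in decile 3, where 11.3% were depleted. PAN2, a subunit of the PAN2-PAN3 deadenylase that PABP recruits, was enriched by 1.16 ± 0.23 (SE; edgeR adjusted p = 0.0179). CNOT3 had the next highest value, 0.97, below the fold required. CNOT7, a catalytic subunit of the CCR4-NOT complex, was depleted at -1.91 ± 0.30 (SE; edgeR adjusted p = 0.0121), from 67.1 and 39.7 scaled CPM in Input to 14.98 and 13.5 in IP, and CNOT9 was depleted at -1.02.

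Nuclear poly(A) RNA binding and decay made up the smallest role, with 4 of 5 genes enriched, against 10.5% of all tested genes, and a median of 1.22. The 5 genes have 2208 to 5967 coding bases, and in the length deciles 8 to 10, which hold them, 14.9% to 46.6% of genes were enriched. EXOSC10, a nuclease of the nuclear exosome, had 1.91 ± 0.31 (SE; edgeR adjusted p = 0.0128), and ZFC3H1, which links polyadenylated nuclear RNA to the exosome, had 1.77 ± 0.24 (edgeR adjusted p = 0.0105). The helicase gene MTREX was at 1.22 and the nuclease gene DIS3 at 1.13. ZC3H14, a nuclear poly(A)-binding protein with zinc fingers, was at 1.09 ± 0.32 (SE) with an edgeR adjusted p of 0.0500026, just outside the threshold. In the blocked fit 15 genes of the list were enriched, the same 14 and ZC3H14.

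**Figure D5:**
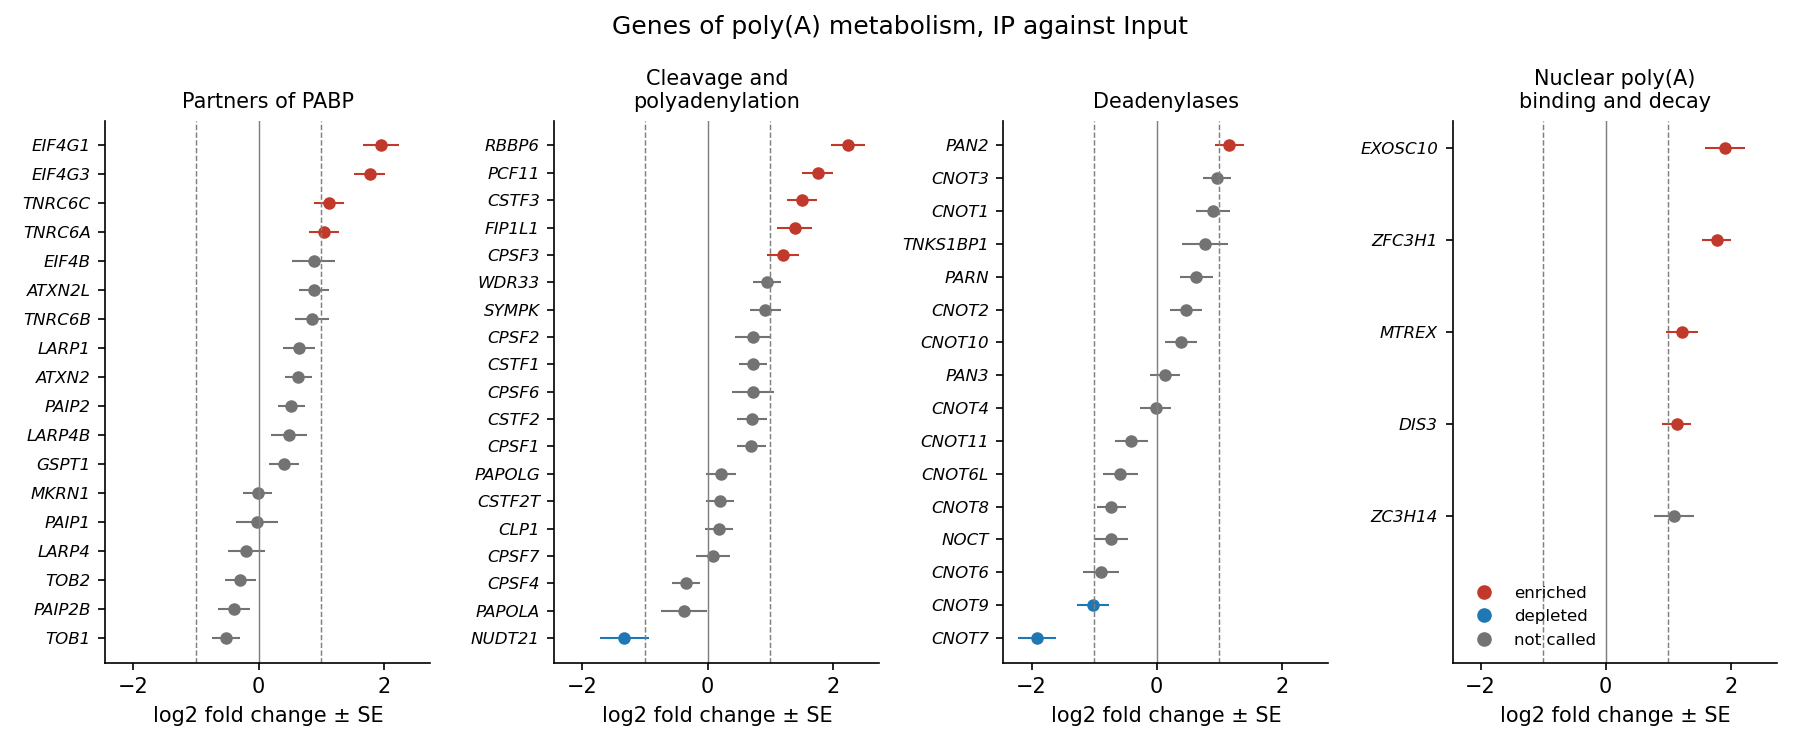
Log2 fold change of IP over Input with its SE for each tested gene of the poly(A) list, in 4 panels by role and sorted within each, with enriched genes in red, depleted genes in blue, uncalled genes in grey and dashed lines at -1 and 1. Enriched genes occur in each panel, the 3 depleted genes are NUDT21, CNOT7 and CNOT9, and 4 of the 5 genes of nuclear poly(A) binding and decay are enriched.

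The longer GAA repeat, absent from the 4 mRNAs, was present in 16 of the 58 genes of the list, or 27.6%, against 13.8% of all tested genes, and in 7 of its 14 enriched genes, against 38.3% of all enriched genes. EIF4G1 and RBBP6 each held 3 copies of GAAGAAGAA, while EIF4G3, PCF11 and EXOSC10 were enriched and held none, and CNOT7 was depleted and held 1. Genes of the list were also longer, with a median coding length of 2161.5 bases against 1431 over protein-coding genes. The part of length in the shares with the repeat was not tested.

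The genes most like each mRNA were found by the distance of their log2 levels over the 4 libraries, after subtraction of each gene's mean, among 8917 protein-coding genes with a mean of at least 10 scaled CPM. For PABPC1 they were PSMA4, a proteasome subunit gene, at a distance of 0.0906, then H2BC18 at 0.105 and TNNT1 at 0.107. For PABPC4 they were MTA3, LSM14B and LRRK1, at 0.0106 to 0.0260, and for PABPN1 they were PURA, DNAJB11 and CSTB, at 0.0186 to 0.0433. For PABPC1L the nearest was FOS at 0.0788, followed by VGF at 0.150 and JUN at 0.240, and FOS and JUN are immediate early genes. FOS was at 12.9 and 46.2 scaled CPM in Input and 26.5 and 74.7 in IP, so it too was higher in replicate 2 in both groups. The distances rest on 4 libraries, and with so many genes compared a small distance is a description only.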

How the data were processed

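RIP-seq was analysed in 4 libraries, ORC1-FLAG IP and Input with 2 replicates each, grouped by the GEO labels. The authors deposited raw counts of reads per gene. Per the study's methods and the submitters' processing notes, trimming was by Trimmomatic, alignment to hg19 by STAR, and counting by featureCounts on Ensembl genes, with reads on unplaced contigs removed beforehand. The Ensembl release and the use of strand are not given in the sources used here. Total counts were 27483148 and 20280445 in IP and 14677002 and 9213877 in Input, and lower depth widens the counting intervals of PABPC1L and PABPN1 most.

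Gene models and sequences came from GENCODE release 44 on GRCh38 and were joined by Ensembl identifier, which matched 52181 of 63677 table genes. The test was edgeR 4.0.16 (R 4.3.3) by robust quasi-likelihood, with TMM scaling (factors 0.758 and 0.868 for IP, 1.19 and 1.28 for Input), filterByExpr and group as the only term. SE and intervals follow from each gene's F statistic and fold change. The fits without a block were also run on simulated data with known changes. These were larger than those of the 4 mRNAs and had no replicate effect, so that run does not bear on the blocked fit. IP and Input of 1 number stem from the same RIP in the labels, and their deviations from the group means had a Pearson r of 0.645 over genes, so the numbers pair the libraries and a blocked fit was an alternative. An exact permutation test of 2 against 2 cannot go below a two-sided p of 0.333 and was not used.

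Other alternatives were RLE, library size and upper-quartile scaling, other count filters, DESeq2 1.42.0, limma voom (limma 3.58.1), leaving out each library, pseudocounts of 0.1 and 1, and sums with pseudogenes or the readthrough gene. Named were the 4 members, other family genes, pseudogenes with the most counts, overlapping genes, called and extreme genes of each role, and the 3 nearest genes. PAPOLA, a lowest-ranked gene of its role, falls under this rule. Genes of cell identity, ORC1, and the individual GAA counts were added after values were seen. The members and lists were chosen with earlier results of these data known.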

Additional observations from a re-analysis of the deposited data

How the results depend on the processing

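Each of the 4 fold changes was recomputed under 12 or 13 alternatives, 50 values in all, of which 41 kept their direction and their side of the call. With library size only, PABPC4 was at -0.20 and PABPN1 at -0.53, and with upper-quartile scaling PABPN1 was at -0.088; these scalings moved the median of all tested genes by -0.60 and -0.17. Leaving out a library, with the lone sample of a group assumed to vary like the other group, gave 0.37 to 1.33 for PABPC1 (called without IP replicate 2, 1.30, and without Input replicate 1, 1.33), 0.13 to 0.58 for PABPC4, -0.030 to 2.00 for PABPC1L (called at 2.00 when Input replicate 2 was left out, -0.030 when IP replicate 2 was) and -0.44 to 0.61 for PABPN1 (-0.14 without IP replicate 1, -0.44 without Input replicate 2). Such a fit loses the pairing of IP and Input, and the cause was not tested further. With the replicate block the values were 0.84, 0.41, 0.95 and 0.11 in the order PABPC1, PABPC4, PABPC1L and PABPN1, with no call changed, and the block called 3917 genes in all against 2757 without it. Pseudocounts changed no direction.

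Calls in the poly(A) list numbered 17 and ranged from 14 to 21 over the alternatives. The split of enriched against depleted genes moved with the scaling: 14 and 3 with TMM, 10 and 4 with upper quartile and 6 and 9 with library size only, and over all tested genes 1542 and 1215, 1080 and 1542, and 380 and 3257. The split also moved when single libraries were left out, both in the list and over all tested genes, so this is not particular to the list. The depth of PABPC1L and PABPN1 limits comparisons within a replicate.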
